A study of Mus musculus with 3 samples.

Results

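The genes described here are the mouse solute carriers that move inorganic ions, metals and organic ions across membranes. They were chosen by name: every gene whose array name falls in 15 SLC families (SLC4, 8, 9, 11, 12, 20, 22, 24, 26, 30, 34, 39, 40, 41 and 47) was taken, which gave 103 genes read by 167 probes, of 27978 genes with a probe. Sorted by what they carry, the families form 8 role groups. A further 8 genes (9 probes) bear such a name in RefSeq but not on the array; 3 of them were already included through other probes and none was added. Of the 103 genes, 75 (72.8%) were bright enough to be measured, against 63.8% of all genes (17857 of 27978). Expression was compared between whole ovaries of females with a conditional knockout (cKO) of the clock gene Bmal1 (symbol Arntl) and control ovaries. The genes, and the probe that reads each, were chosen with this same comparison in view, so the values below are descriptions of these animals and pools.

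The cKO females carried 2 floxed Bmal1 alleles (Bmal1fx/fx) and Cre recombinase under the Sf-1 promoter. The controls carried the same floxed alleles and no Cre, so the floxed alleles are shared by both groups. All were C57Bl/6J females aged 10 weeks, killed at Zeitgeber time 12, when lights go off, 3.5 days after copulation, when the ovary holds young corpora lutea. Sf-1 marks steroid-producing cells of the gonads, so a whole ovary mixes cells in which Cre is active with cells in which it is not. RNA from 3 females was pooled for each genotype on each of 3 two-colour Agilent arrays, with cKO RNA in green (Cy3) and control RNA in red (Cy5), so 9 females of each genotype were measured as 3 pools. No dyes were swapped, so dye and genotype cannot be told apart for any probe.

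Ion transporters set the pH, volume, calcium and metal content of cells. Bicarbonate and sodium-proton exchangers move acid and base, potassium-chloride cotransporters let swollen cells lose salt and water, and sodium-calcium exchangers remove calcium after a signal. The ZIP proteins (Slc39) bring zinc into the cytosol and the ZnT proteins (Slc30) take it out, a traffic that matters in the ovary because mouse oocytes load zinc as they mature. Iron enters cells through Slc11a2 and leaves through ferroportin (Slc40a1), and the Slc41 family carries magnesium. The Slc22 and Slc47 families move organic cations and anions, among them carnitine, urate and many drugs. BMAL1 binds DNA at E-boxes as a partner of CLOCK, and SF-1 binds sites of its own in genes of steroid-producing cells.

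The probes that carry the main results are shown with their 60 bases, 5′ to 3′, as the array's design files give them, in lower case. Those of Slc41a3, Slc47a1 and Slc12a8 read the genes that differed most between the genotypes, and those of Slc4a7 disagree with each other. The further Slc4a7 probes are not listed by brightness, and the probe labelled second is the dimmest of them.
Slc41a3 (chromosome 6): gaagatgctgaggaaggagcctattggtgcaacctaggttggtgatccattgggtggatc
Slc47a1, brighter probe (chromosome 11): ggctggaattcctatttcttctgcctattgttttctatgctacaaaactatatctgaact
Slc47a1, second probe (chromosome 11): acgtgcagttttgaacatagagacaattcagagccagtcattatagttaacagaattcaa
Slc12a8 (chromosome 16): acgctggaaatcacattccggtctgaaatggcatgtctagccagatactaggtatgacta
Slc4a7, brightest probe (chromosome 14): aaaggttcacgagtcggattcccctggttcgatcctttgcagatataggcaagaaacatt
Slc4a7, second probe (chromosome 14): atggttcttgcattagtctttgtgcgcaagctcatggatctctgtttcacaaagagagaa
Slc4a7, other further probe (chromosome 14): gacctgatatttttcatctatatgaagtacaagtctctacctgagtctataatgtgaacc
The chromosomes are those of the RefSeq annotation of GRCm38.p6.

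A gene counted as measured where its probe was well above background in the same channel on all 3 arrays. Spots well above background made up 67.4% to 69.1% of each array in the cKO channel and 62.9% to 65.8% in the control channel. Precision is limited by having only 3 arrays. Arrays 2 and 3 shared a slide that did not hold array 1. The ovary was recognisable in both channels: all 7 luteal markers, all 7 granulosa markers and all 7 oocyte markers were well above background in both channels on every array. The log2 ratio by the Arntl probe was 0.27, 0.13 and -0.24 over the arrays in turn; the labels do not say which part of the gene is removed, so it checks neither the deletion nor the labels. Summed signals of some cell type markers separated the genotypes. Luteal markers summed to 101773 to 141854 intensity units in the cKO pools, against 157402 to 229733 in the control pools. Of the 7 luteal markers, 4 were below 0 on all arrays and 1 was above 0 on all. Star was at -4.09 ± 0.13 and was the 1 that passed limma's adjusted test (adjusted p = 0.0196). Lhcgr was at -0.86 ± 0.070, Scarb1 at -0.80 ± 0.77 and Hsd3b1 at -0.38 ± 0.23, all below 0 on all arrays. Ptgfr was at 1.07 ± 0.30, above 0 on all arrays, with its second probe at 0.25. Prlr was at -0.038 ± 0.13, with further probes at 0.34 and -0.22. Cyp11a1 was above 0 on arrays 1 and 2 and below 0 on array 3, at 0.39, 0.28 and -1.59. Its mean was -0.30 ± 1.11, with further probes at -0.06 and -0.41. The 5 fibroblast markers summed to 36487 to 56433 in the cKO pools, against 31091 to 35470 in the control pools, with Lum below 0 on all arrays. In bulk tissue, fewer cells of a type and less RNA per cell cannot be told apart, and the part of these sums in the transporter values was not tested.

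Log2 ratios are of cKO over control, so a positive value means a higher level in the cKO pools, and means are given with the SD over the 3 arrays (n = 3). Intensities are linear, normalised values of each channel. They include an offset of 50, which pulls ratios of dim probes toward 0. None of the 75 measured transporters passed limma's test at a Benjamini-Hochberg adjusted p of 0.05, taken over all 17857 genes, in which 31 genes passed in all: 0 were higher in cKO ovaries (0.0672% of all genes were) and 0 lower (0.106% of all genes were). The smallest adjusted p among them was 0.0754, for Slc41a3. At an unadjusted p of 0.05, 10 were higher (13.3%, against 5.9% of all genes) and 6 lower (8%, against 6.42% of all genes). On all 3 arrays alike, 16 lay above 0 (21.3%, against 17.4% of all genes) and 15 below 0 (20%, against 17.8%). Intensities of the cKO and control pools did not overlap for 10 genes that were higher, where the share over all genes was 9.97%, and for 10 that were lower, where it was 9.83%. These values come from the comparison that the gene choice used, so nothing further is read from these shares.

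The set as a whole was balanced between higher and lower genes. Its median log2 ratio was -0.0099, against -5.77e-05 over all genes tested, with 37 genes above 0 and 38 below. With each array centred on its median in place of loess, 47 of the 75 lay above 0, but the median of all genes itself then stood at 0.12 and that of the transporters at 0.14. The median size of the log2 ratio without its sign was 0.196 in the transporters and 0.168 over all genes, and 43 of the 75 had a mean within 0.25 of 0. A mean of 1 or more was reached by 1 gene (1.33%, against 0.717% of all genes), Slc41a3. A mean of -1 or less was reached by 3 genes (4%, against 0.678%), Slc47a1, Slc12a8 and Slc12a7.

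**Figure D1:**
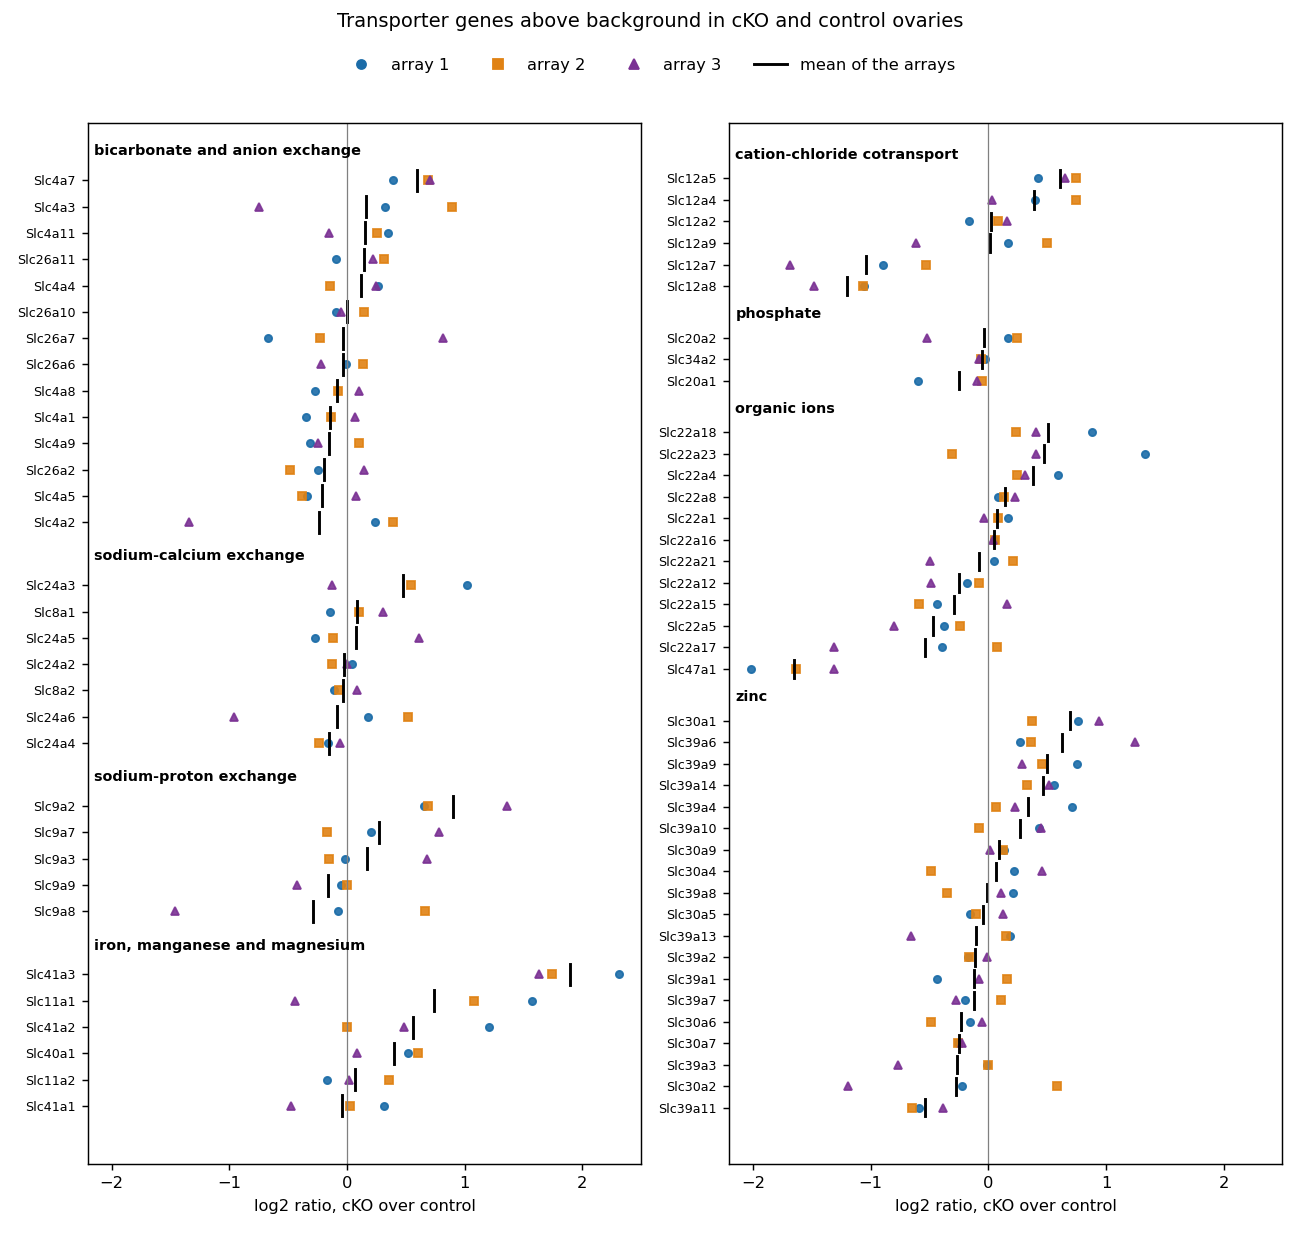
Log2 ratio of cKO over control (x axis) for 72 of the 75 measured transporters, sorted by role group and, within it, by mean; each symbol is 1 array (circle, square and triangle for arrays 1, 2 and 3) and the black bar is the mean of the 3. Slc41a3 lies farthest to the right at a mean of 1.90, Slc47a1 farthest to the left at -1.65, and 42 of the genes drawn have a mean within 0.25 of 0.

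Iron, manganese and magnesium carriers were the group with the highest median, 0.48, and all 6 of its genes were measured, 5 of them with a mean above 0. Slc41a3, of the magnesium-carrying Slc41 family, had intensities of 3939.9, 2708 and 2736 in the cKO pools, against 792, 809 and 881 in the control pools. Every cKO pool lay well above every control pool. Its log2 ratios were 2.31, 1.74 and 1.64 on arrays 1 to 3, a mean of 1.90 ± 0.37, or 3.73-fold higher in cKO ovaries, with 1 probe to read it. On the shared slide of arrays 2 and 3 alone it averaged 1.69. With the slide as a block in the limma fit the log2 ratio was 2.00. Array 1 is alone on its slide, so the spread in that fit comes from arrays 2 and 3 only, and its p-value is not given. With the ratios of the scanner software (the deposited log ratios, turned to cKO over control) the log2 ratio was 2.28. There Slc41a3 passed the threshold in limma, at an adjusted p of 0.0443.

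The other magnesium carriers of the family did not share that value. Slc41a2 had intensities of 352, 182 and 253 in the cKO pools, against 153, 182 and 181 in the control pools, a log2 ratio of 0.56 ± 0.61. Its ratio was high on array 1 and near 0 on array 2, and without array 1 the mean was 0.24. Slc41a1, a magnesium exchanger of the cell membrane, was at -0.045 ± 0.40, above 0 on array 1 and below 0 on array 3. Trpm6, a magnesium channel, was at 0.44 ± 0.17, above 0 on all arrays. Cnnm3, of a family tied to magnesium efflux, was at -0.29 ± 0.35. None of the 7 magnesium channel and CNNM genes passed limma's adjusted test. Across all 9 lists of partner genes, 69 of 74 were tested and 0 passed it, against 0.174% of all genes. At an unadjusted p of 0.05 in limma there were 5 higher and 2 lower. The shares over all genes were 5.9% higher and 6.42% lower, and nothing further is read from these counts.

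Among the iron carriers, Slc40a1, the cell's iron exporter ferroportin, had intensities of 3119, 2674 and 2075 in the cKO pools, against 2184, 1766 and 1959 in the control pools, a log2 ratio of 0.40 ± 0.28. It was above 0 on all 3 arrays, though barely so on array 3, and the intensities of the genotypes overlapped. With the scanner software's ratios it was 0.13. Slc11a1, the metal transporter of macrophage phagosomes, had intensities of 1339, 793 and 459.6 in the cKO pools, against 451, 375 and 626 in the control pools. It was high in the cKO pools of arrays 1 and 2 and lower than its control on array 3, with log2 ratios of 1.57, 1.08 and -0.44 and a mean of 0.73 ± 1.05; without array 3 the mean was 1.32. The macrophage markers moved with it: their median log2 ratio was 1.32, 1.10 and -0.79 on arrays 1 to 3. All 6 of them were well above background in both channels. Together they summed to 29434 to 65854 in the cKO pools, against 14088 to 24437 in the control pools. On array 3 the sums were 29434 in the cKO pool and 24437 in the control pool, though every marker but Lyz2 was below 0 there. Lyz2 was at 2.46, 1.23 and 0.46 on arrays 1 to 3. The part of these cells in the value of Slc11a1 was not tested.

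Slc11a2, the main importer of ferrous iron, was at 0.069 ± 0.27 by its brightest probe. Its further probes were at -0.58 and 0.020, so the probes do not share a direction. Of 14 further genes of iron uptake, storage and regulation, none passed the adjusted test. Transferrin receptor 2 (Tfr2) was at 0.61 ± 0.46, above 0 on all arrays. Tfrc, the receptor that brings transferrin iron into most cells, was at -0.50 ± 0.65, with signs that differed between arrays.

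**Figure D2:**
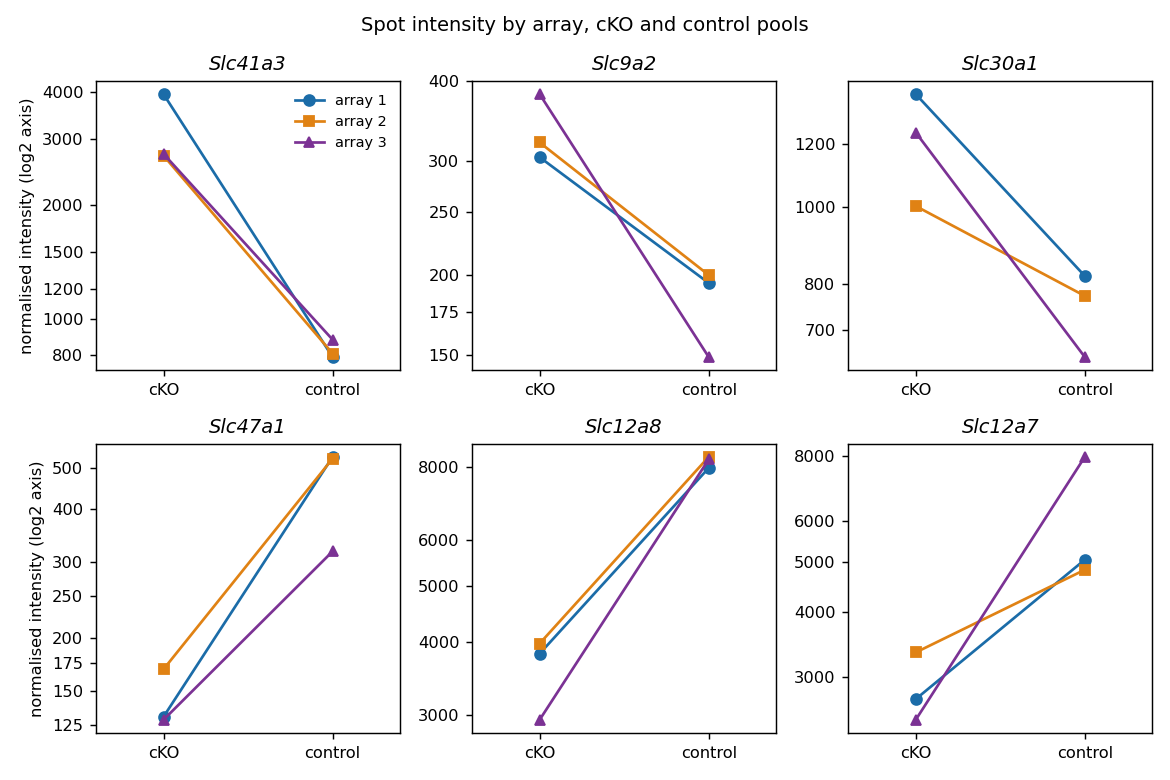
Normalised spot intensity (log2 axis, a separate range in each panel) of 6 transporters in the cKO pool, left, and the control pool, right, of each array; lines join the pools hybridised together. In the upper panels every cKO pool lies above every control pool, as for Slc41a3 (2708 to 3939.9 against 792 to 881), and in the lower panels every cKO pool lies below every control pool, as for Slc47a1 (129 to 169 against 318 to 529.7).

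The organic ion carriers had a median of -0.013 over 12 measured genes of 20, with 6 means above and 6 below 0. Slc47a1, also called MATE1, which exports organic cations and drugs in exchange for protons in kidney and liver, had intensities of 131, 169 and 129 in the cKO pools, against 529.7, 525 and 318 in the control pools. Every cKO pool lay below every control pool. Its log2 ratios were -2.02, -1.64 and -1.31, a mean of -1.65 ± 0.36, or 3.15-fold lower in cKO ovaries, with an adjusted p of 0.0978 in limma. Its second probe agreed in direction on all 3 arrays, at -1.53, -1.23 and -1.11, a mean of -1.29 ± 0.22. With the scanner software's ratios the value was -2.64 and passed the threshold in limma, at an adjusted p of 0.0271; on the shared slide of arrays 2 and 3 alone it averaged -1.47.

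The carnitine transporter Slc22a5 had intensities of 578, 626 and 529 in the cKO pools, against 750.1, 739.9 and 923 in the control pools, a log2 ratio of -0.47 ± 0.29 and lower in all 3 cKO pools. Its second probe was at 0.22 ± 0.38, opposite in sign, so the direction rests on the probe read, and the mean of both probes was -0.13. Slc22a17, the receptor for lipocalin-2, was at -0.54 ± 0.71 by its brightest probe and -0.41 ± 0.58 by the second. Array 3 alone carried most of this, and without it the mean was -0.16. Slc22a12, known in kidney as the urate transporter, was at -0.25 ± 0.21, below 0 on all arrays.

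Among the organic ion carriers that were higher, Slc22a18, an imprinted gene of the family, had intensities of 214, 138 and 146 in the cKO pools, against 116, 117 and 110.4 in the control pools. The genotypes did not overlap, with a mean of 0.51 ± 0.33, but the second probe was at -0.065 ± 0.044. Slc22a4, the ergothioneine transporter, was at 0.38 ± 0.18 and above 0 on all arrays from intensities of 118, 94.4 and 102 in the cKO pools, against 78.5, 79.9 and 81.9 in the control pools. With the scanner software's ratios these 2 genes were at 0.90 and 1.21. Slc22a23 was at 0.48 ± 0.82 and its second probe at 0.85 ± 0.76. Both probes were high on array 1 and below 0 on array 2, the second only just, at -0.015. The mean of the brightest probe without array 1 was 0.049, but the second probe was high on array 3 too, at 1.12. The other 5 measured organic ion carriers lay between -0.29 and 0.15.

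The cation-chloride cotransporters, with 7 of 9 measured, ranged from a mean of -1.20 to one of 0.61. Slc12a8, a distant relative of the salt cotransporters, had intensities of 3827, 3983 and 2948 in the cKO pools, against 7964, 8319.6 and 8236 in the control pools. Every cKO pool lay below every control pool, with log2 ratios of -1.06, -1.06 and -1.48, a mean of -1.20 ± 0.24, or 2.30-fold lower in cKO ovaries (limma, adjusted p = 0.130). Slc12a7, the potassium-chloride cotransporter KCC4, had intensities of 2716, 3343 and 2477 in the cKO pools, against 5051, 4830.4 and 7983 in the control pools. It was lower in every cKO pool too, most on array 3, with log2 ratios of -0.90, -0.53 and -1.69, a mean of -1.04 ± 0.59, or 2.05-fold lower. Without array 3 the mean was -0.71.

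Other members of the family had means above 0. Slc12a5 (KCC2), best known from neurons where it keeps chloride low, had intensities of 332, 344 and 241 in the cKO pools, against 248, 205 and 153 in the control pools. It was above 0 on all arrays, at 0.61 ± 0.17, though the lowest cKO pool and the highest control pool overlapped across arrays. Slc12a4 (KCC1), found in most tissues, was at 0.39 ± 0.36, from intensities of 1632, 1620.0 and 1339.8 in the cKO pools, against 1241, 964 and 1313 in the control pools. All cKO pools lay above all control pools, with a ratio near 0 on array 3, and with the scanner software's ratios the mean was 0.095.

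Slc12a2, the sodium-potassium-chloride cotransporter that loads cells with chloride, was at 0.024 ± 0.17, and Slc12a9, whose cargo is less well known, was at 0.018 ± 0.57. The kinases that switch these carriers, of the WNK and SPAK pathway, had a median log2 ratio of 0.13 over 6 genes, none past the adjusted test. Stk39, which encodes SPAK, was at 0.40 ± 0.069, above 0 on all arrays, and its relative Oxsr1 was at 0.17 ± 0.16. Of the sodium-potassium pump and its FXYD regulators, 9 of 10 genes were measured, none past the adjusted test, with a median of -0.24. Fxyd1 was at -0.65 ± 0.64, its second probe at -0.030, and Fxyd5 was at 0.59 ± 0.66.

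The zinc carriers were the largest group, with 19 of 24 measured and a median of -0.044. They included 6 genes above 0 and 5 below 0 on all arrays. Slc30a1, the zinc exporter ZnT1 of the cell membrane, had intensities of 1386, 1003 and 1240.5 in the cKO pools, against 819, 773 and 648 in the control pools. Every cKO pool lay above every control pool, with a mean log2 ratio of 0.69 ± 0.29, and the second probe was above 0 on all arrays too, at 0.34 ± 0.21. Slc39a6, the zinc importer ZIP6, which mouse oocytes use to take up zinc, had intensities of 2152, 2271 and 3349 in the cKO pools, against 1788, 1766 and 1412 in the control pools. Its mean was 0.63 ± 0.54, most of it from array 3, and without that array it was 0.32. Slc39a9 (ZIP9) was at 0.50 ± 0.24 and its second probe at 0.16 ± 0.079, both above 0 on all arrays. That second probe cleared background in control RNA on only 2 of 3 arrays and was kept only through the cKO channel.

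Slc39a14, which carries zinc, manganese and iron, was at 0.47 ± 0.12 by its brightest probe and at -0.0044 ± 0.061 by the second. On the lower side, Slc39a11 had intensities of 1794, 1398 and 1429 in the cKO pools, against 2697, 2192 and 1867 in the control pools. The genotypes did not overlap, with a mean of -0.54 ± 0.14, and with the scanner software's ratios it was -0.25. Slc30a2, a vesicular zinc carrier known from the mammary gland, was at -0.23, 0.58 and -1.19 on arrays 1 to 3, a mean of -0.28 ± 0.89. Its sign turned to 0.18 without array 3 and to 0.16 with the scanner software's ratios. Slc39a3, a zinc importer of the cell membrane, was near 0 on arrays 1 and 2 and at -0.77 on array 3.

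Slc39a7, which releases zinc from the endoplasmic reticulum and Golgi, had intensities of 12395, 14028 and 14615 in the cKO pools, against 14226, 12988 and 17666 in the control pools, a log2 ratio of -0.12 ± 0.20. The intensities of the genotypes overlapped. The other 12 measured zinc carriers lay between -0.25 and 0.47, the highest being Slc39a14. The metallothioneins Mt1 and Mt2, small proteins that bind zinc and are induced by it, were at -0.39 ± 0.55 and -0.24 ± 0.62. Both were above 0 on array 1 and below 0 on arrays 2 and 3, and none of the 5 genes of zinc binding and sensing passed the adjusted test.

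Among the copper transporters, taken as a list of neighbouring metal carriers, 6 genes were measured and none passed the adjusted test. Slc31a2 was at -0.61 ± 0.90, with -1.62 on array 3, and Atp7b, a copper-exporting pump, was at -0.58 ± 0.21 and below 0 on all arrays.

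Sodium-proton exchangers, which expel acid in return for sodium, had a median of 0.17 over 7 measured genes of 9. Slc9a2, an exchanger known from epithelia of gut and stomach, had intensities of 305, 321 and 382 in the cKO pools, against 194, 199.6 and 149 in the control pools. All cKO pools lay above all control pools, with log2 ratios of 0.65, 0.69 and 1.36 and a mean of 0.90 ± 0.40. A second probe of the gene was too dim to be kept. With the scanner software's ratios the mean was 1.57. Slc9a7, an exchanger of the trans-Golgi network, was at 0.27 ± 0.48. It was below 0 on array 2 and highest on array 3, and without array 3 its mean was 0.015.

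Slc9a8, the exchanger of the Golgi, had intensities of 698, 812 and 439.5 in the cKO pools, against 734, 514 and 1211 in the control pools. Its log2 ratios were -0.073, 0.66 and -1.46, so the arrays disagree, and its mean of -0.29 ± 1.08 became 0.29 without array 3 and 0.019 with the scanner software's ratios. The second probe was at 0.11 ± 0.043, but it was dim and cleared background in control RNA on only 1 of 3 arrays. Slc9a9, an endosomal exchanger, was at -0.16 ± 0.23 from intensities of 81.9, 82.8 and 74.8 in the cKO pools, against 85.1, 83.0 and 101 in the control pools. Slc9a3, the exchanger of gut and kidney, was at 0.17 ± 0.45, high on array 3 alone. Of 6 scaffold and partner genes of these exchangers, none passed the adjusted test. Ezr, the linker protein ezrin, was at 0.34 ± 0.55, high on array 1 alone, and Chp1, a cofactor of the exchangers, at -0.17 ± 0.20. Further probes of Chp1 were at -0.13 and 0.18, so its probes do not share a direction.

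The bicarbonate and anion exchangers lay close to 0, with a median of -0.033 over 14 measured genes of 21, and 1 gene above 0 on all arrays. That gene was Slc4a7, the sodium-bicarbonate cotransporter NBCn1, which had intensities of 17433, 20553 and 10691 in the cKO pools, against 13290.4, 12744 and 6555 in the control pools. Its mean by the brightest probe was 0.60 ± 0.18, with an overlap between genotypes. Its further probes gave -0.34 ± 0.22, below 0 on all arrays, and -0.22 ± 0.91, below 0 on arrays 1 and 2 and above 0 on array 3. The mean of the 3 probes was 0.011, so no direction can be given for the gene.

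The chloride-bicarbonate exchanger AE2 (Slc4a2) had intensities of 1688, 1738 and 1038 in the cKO pools, against 1429, 1323 and 2633 in the control pools. Its mean was -0.24 ± 0.96; the cKO pool was the higher on arrays 1 and 2 and the lower on array 3, and without array 3 the mean was 0.32. AE3 (Slc4a3) had the same order of arrays, at 0.32, 0.90 and -0.75, a mean of 0.16 ± 0.83, and its second probe was at -0.025 ± 0.31. Slc4a5, a sodium-bicarbonate cotransporter, was at -0.22 ± 0.25, and the sulphate transporter Slc26a2 was at -0.20 ± 0.32. Slc4a11 was at 0.15 ± 0.27 and cleared background in control RNA on only 2 of 3 arrays. Slc26a6, an anion exchanger of epithelia, was at -0.035 ± 0.18, and its second probe was at 0.11 ± 0.12. The other 8 measured genes of the group, Slc26a6 among them, lay between -0.15 and 0.14.

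Carbonic anhydrases make the bicarbonate that these carriers move, and 11 of 12 were measured. None passed the adjusted test and their median was -0.00041. Car2, a cytosolic form, was at -0.52 ± 0.15 and below 0 on all arrays. Car12, an anchored form of the cell surface, was at 0.41 ± 0.14 and above 0 on all arrays.

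Sodium-calcium exchangers had a median of -0.028 over 7 measured genes of 9. Slc24a3, which exchanges sodium for calcium and potassium, had intensities of 387, 268 and 227 in the cKO pools, against 191, 184 and 248 in the control pools. Its log2 ratios were 1.02, 0.54 and -0.13 and its mean 0.48 ± 0.57, high on array 1, and 0.21 without it. Slc8a1, the exchanger NCX1 that clears calcium from heart and many other cells, was at 0.086 ± 0.23. Its 3 further kept probes were at 0.17, 0.023 and 0.0026, so all 4 kept probes lay within 0.25 of 0. Slc24a6, named Slc8b1 in RefSeq and the exchanger of mitochondria, was at 0.18, 0.52 and -0.96 on arrays 1 to 3, a mean of -0.086 ± 0.78. It was 0.35 without array 3.

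Slc24a5, which sits in melanosomes of pigment cells, was at 0.074 ± 0.47. Slc24a4 was at -0.15 ± 0.088 and below 0 on all arrays, while Slc8a2 was at -0.034 ± 0.10 and Slc24a2 at -0.028 ± 0.090. Of 7 calcium pumps, 5 were measured, none past the adjusted test, with a median of -0.13. Atp2a3 and Atp2a1, pumps that fill the calcium store of the endoplasmic reticulum, were at -0.26 ± 0.20 and -0.25 ± 0.26, both below 0 on all arrays.

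Of the phosphate carriers, 3 of 5 were measured and all 3 had means below 0, with a median of -0.056. Slc20a1 (PiT-1), which supplies most cells with phosphate, had intensities of 1200.5, 1810.0 and 1744 in the cKO pools, against 1817, 1873 and 1865 in the control pools. Its mean was -0.25 ± 0.30 and its second probe was at -0.31 ± 0.14, below 0 on all arrays, but with the scanner software's ratios the mean of the brightest probe was 0.16. Slc20a2 (PiT-2) was at -0.038 ± 0.42, its second probe at 0.13 ± 0.21, and Slc34a2, known from lung and gut, was at -0.056 ± 0.025.

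The other 28 transporters were not well above background by the rule used and get no ratio. They include carriers known for their work in kidney, gut, ear or brain. Slc12a1 and Slc12a3, the salt carriers of the kidney that loop and thiazide diuretics block, were among them. So were Slc22a2, Slc22a6 and Slc22a7, which take organic ions into kidney or liver cells, and Slc22a3, Slc22a9, Slc22a13, Slc22a14 and Slc22a20. Dim too were Slc26a1, Slc26a3, Slc26a4, Slc26a5, Slc26a8, Slc26a9, Slc4a10, Slc9a4, Slc9a10, Slc8a3 and Slc24a1. The zinc carriers Slc30a3, Slc30a8, Slc30a10, Slc39a5 and Slc39a12 and the phosphate carriers Slc34a1 and Slc34a3 complete the set.

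The arrays did not carry the same pattern. Over the 75 transporters, Pearson's r between the log2 ratios of 2 arrays was 0.72 for arrays 1 and 2, 0.50 for arrays 1 and 3 and 0.26 for arrays 2 and 3. Over all genes it was 0.60, 0.21 and 0.0086. These correlations run across genes that share spots, dyes and pools, and genes are not independent replicates. For 44 of the 75 transporters the sign differed between arrays. The odd one was array 3 for 23 of them, array 2 for 17 and array 1 for 4. Array 3 also had 7 transporters at -1 or less (9.33%, against 4.08% of all genes): Slc4a2, Slc9a8, Slc12a7, Slc12a8, Slc22a17, Slc30a2 and Slc47a1. Of these, Slc12a7, Slc12a8 and Slc47a1 were below 0 on the other arrays as well. Markers of smooth muscle had medians of 0.22, 1.25 and -1.09 and surface epithelium markers of 0.96, -0.56 and -0.84 on arrays 1 to 3. The part of those cells in the array differences was not tested.

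**Figure D3:**
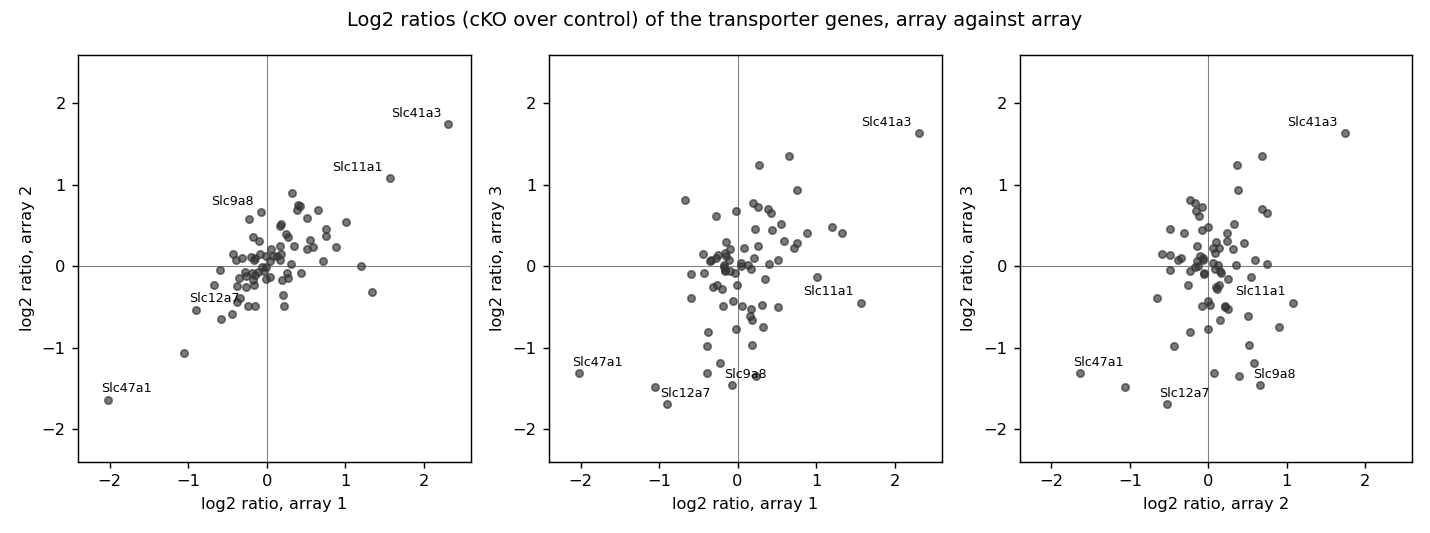
Log2 ratio of cKO over control of the 75 measured transporters on one array (x axis) against another (y axis), for arrays 1 and 2, 1 and 3, and 2 and 3; each point is 1 gene. Slc41a3 lies at the upper right and Slc47a1 at the lower left in all panels, while Slc11a1 is at 1.57 and 1.08 on arrays 1 and 2 and at -0.44 on array 3.

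For 26 of the 75 transporters more than 1 probe was kept, and for 10 of these a further probe had a mean of the opposite sign. Among them are Slc4a3, Slc4a7, Slc9a8, Slc11a2, Slc20a2, Slc22a5, Slc22a18, Slc26a6 and Slc39a14. Some of those further probes had means close to 0, at -0.025 for Slc4a3, -0.065 for Slc22a18 and -0.0044 for Slc39a14. For such probes the sign says little. The further probe of Slc9a8, at 0.11, cleared background in control RNA on only 1 of 3 arrays. Genes with 2 probes that lay on the same side on every array include Slc47a1 and Slc30a1. Slc39a9 is another, but its second probe was kept only through the cKO channel. That probe cleared background in control RNA on only 2 of 3 arrays. Slc41a3, Slc12a8 and Slc12a7 were read by 1 kept probe, so no other probe speaks for their ratios.

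**Figure D4:**
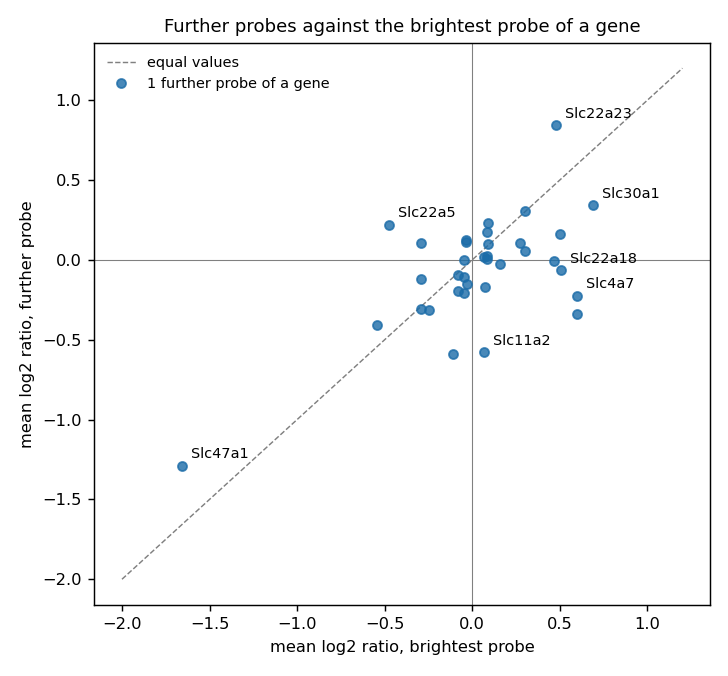
Mean log2 ratio of cKO over control by the brightest probe of a transporter (x axis) and by each further kept probe of the same gene (y axis); the dashed line marks equal values and each point is 1 further probe. Slc47a1 lies at the lower left (-1.65 and -1.29) and Slc30a1 at the upper right (0.69 and 0.34), while both further probes of Slc4a7 lie below 0 where its brightest probe is at 0.60.

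Promoters were read from RefSeq (GRCm38.p6) as short windows around each listed start, most of each window lying upstream of it. They were at hand for 79 of the 103 transporters, with 95 starts. The E-box CACGTG is a palindrome and so the same on both strands. It stood in 14 of the 95 promoters (14.7%), of 13 genes, against 7.15% of 32851 promoters in all. The listed starts of Slc12a7 have overlapping windows that hold the same E-box, 1 and 38 bases before them. That E-box is counted in each window. The SF-1 site CAAGGTCA, searched on both strands, stood in 1 of 95 (1.05%), that of Slc26a1, against 1.56% of all. Neither motif contains the other. Of the 13 genes with an E-box 12 were measured, 6 with a mean above and 6 below 0 and a median of 0.0038. Of the 66 genes with a promoter and no E-box 42 were measured, with a median of -0.034. A match describes the letters in the window and shows no binding.

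Slc41a3 and Slc12a7, whose mean ratios lay on opposite sides of 0, both held an E-box. That of Slc41a3 began 213 bases before the listed start, and that of Slc12a7 began 1 base before it. Both listed starts lie inside the span that RefSeq gives the gene, downstream of its first base, and the sequence before that first base was not used here. Both promoters are printed on the plus strand, 5′ to 3′, with the E-box in capitals.
Slc41a3, chr6:90618996-90619295: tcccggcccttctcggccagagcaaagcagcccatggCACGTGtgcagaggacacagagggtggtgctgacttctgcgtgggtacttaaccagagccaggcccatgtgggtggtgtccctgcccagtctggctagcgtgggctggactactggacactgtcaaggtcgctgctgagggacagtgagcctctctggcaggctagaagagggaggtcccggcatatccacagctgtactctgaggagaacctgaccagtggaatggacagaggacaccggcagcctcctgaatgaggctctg
Slc12a7, chr13:73763410-73763709: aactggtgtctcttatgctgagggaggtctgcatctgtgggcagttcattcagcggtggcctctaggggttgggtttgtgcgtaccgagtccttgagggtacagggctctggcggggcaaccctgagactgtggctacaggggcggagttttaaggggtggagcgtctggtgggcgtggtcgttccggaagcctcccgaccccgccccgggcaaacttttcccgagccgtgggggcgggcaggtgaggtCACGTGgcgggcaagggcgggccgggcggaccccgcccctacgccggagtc
The promoters of Slc12a8 and Slc30a1 in the table held no E-box in these windows.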

How the data were processed

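Whole-ovary RNA was measured on 3 two-colour arrays. Per the file headers, the authors' scans were read with Feature Extraction 9.1.3.1 (Agilent), which wrote the deposited spot and local background intensity values. Its deposited log10 ratios divide red by green, that is control by cKO. The deposited value table holds the same numbers (largest difference 0). For further steps of the authors the sources used here give nothing.

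Mean signals were corrected for median local background by normexp (offset 50) and normalised within each array by loess, with control spots at weight 0, in limma 3.58.1 under R 4.3.3. Spots that the scanner software marks as outliers (13, 4 and 0 in array order) were dropped, and repeat spots of a probe were averaged. Probes well above background in the same channel on all 3 arrays were kept, and the brightest by mean log2 intensity stood for its gene. The log2 ratio (cKO over control) was tested against 0 with lmFit and eBayes, two-sided, adjusted over 17857 genes. Channel intensities were taken after loess and Aquantile scaling. The p-values reflect the spread between pools, not between single animals. The fit was tested on simulated ratios with less spread than was measured. That test does not show how well the fit recovers changes at the measured spread.

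Genes were named as the array's files name them. The text names up to 3 members of each role group with the highest and 3 with the lowest mean, the brightest of each group, members whose probes differ in sign, and up to 2 partner genes per list with the largest absolute mean. Of the measured members, 3 are counted in the totals but not reported here singly. Members and lists were chosen with earlier results of these data known. The alternatives were the scanner software's ratios, median centring, arrays scaled to a common spread, other filters on dim probes, the mean of all kept probes, the slide as a block, and leaving out each array.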

Additional observations from a re-analysis of the deposited data

How the results depend on the processing

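No measured transporter passed the threshold with the main setting, median centring, scaling to a common spread, either other filter, the mean of all kept probes or any array left out. The scanner software's ratios gave 1 higher (Slc41a3, 2.28) and 1 lower (Slc47a1, -2.64). With the slide as a block the log2 ratio of Slc41a3 was 2.00. No count is given for that fit, because array 1 is alone on its slide. Over all genes, 31 passed with the main setting, 53 with the scanner software's ratios, 48 with the slide as a block, 1 with median centring, 0 with arrays scaled to a common spread and 0 with no filter. Leaving out each array gave 0 to 20 over all genes: 1 without array 1, 20 without array 2 and 0 without array 3. The transporters' median log2 ratio was 0.14 with median centring, where the median of all genes was 0.12, and -0.014 to 0.059 with an array left out, the highest without array 3. Transporters with a mean above 0 numbered 35 to 41 with an array left out. Of the 47 named transporters, 8 turned sign with the scanner software's ratios, 9 without array 3 and 0 to 4 under each other alternative. Of those with a mean of at least 0.25 in size, Slc9a8 (0.019 and 0.29) and Slc30a2 (0.16 and 0.18) turned sign with the scanner software's ratios and without array 3. The cause of these differences was not tested. Each array's ratio sets a cKO pool against the control pool hybridised with it, so the test against 0 already pairs the pools by array. The offset limits ratios of dim probes. Slc22a4, a dim one, was at 1.21 with the scanner software's ratios against 0.38, and the part of the offset in this was not tested.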
